A study of Mus musculus with 14 samples.

Results

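Collagens are the main structural proteins of the extracellular matrix, and bone marrow stromal cells are among the cells that make them. The mouse genes examined here were every gene in the count table whose symbol was Col, a number, the letter a and a number. This rule used names alone and found 42 of the 23331 genes. They comprised 11 fibrillar chains, 9 network chains, 9 fibril-associated chains (FACITs, which sit on the surface of fibrils), 5 chains of the beaded type VI collagen, 4 transmembrane chains, 2 multiplexins (Col15a1 and Col18a1) and 2 others, the anchoring-fibril chain Col7a1 and Col28a1. The test across genes was run on genes that reached 1 CPM (the count scaled to a common library total) in at least 3 of the 14 libraries, and 32 of the 42 collagen genes did. A gene can pass this filter through the one group in which it is high, so the 32 do not stand for the whole family. The 10 genes that did not pass were Col24a1, Col4a3, Col4a4, Col9a1, Col9a2, Col19a1, Col6a6, Col13a1, Col25a1 and Col28a1, and the highest count that any of them had in any library lay between 4 and 53 reads.

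The libraries were made from bone marrow stromal cells of adult C57Bl/6 mice carrying the irtTA-GBD*-TAg transgene, which expresses the large T antigen in the presence of dexamethasone and doxycycline. The cells of all groups carried this transgene, had been grown with both agents and were kept without them for 3 days before RNA was taken. Clones were named by the lineages they could enter in separate differentiation assays: osteogenic, adipogenic and chondrogenic (OAC), osteogenic and adipogenic (OA), osteogenic only (O) and adipogenic only (A), with 3 libraries each. In each of these 4 groups libraries 1 and 2 came from single clones from different mice, and library 3 from a pool of several further clones of the same 2 mice. A pool with osteogenic and chondrogenic potential (OC3) and one with adipogenic and chondrogenic potential (AC3) completed the 14 libraries. Clones 1 and 2 are separate clones and library 3 is a pool. The p-values given here therefore judge differences against a spread between libraries of mixed kind, estimated jointly from fits to all 14 libraries.

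Library totals ran from 16888190 to 26076539 counts. The trend of expression with transcript GC content differed between libraries, with Spearman's rho across genes of 0.645 in OA2 and 0.507 in O1, against -0.534 to 0.341 in the other 12, so results are also given without OA2 and O1 where they change. The collagen genes tested had a median GC content of 56.1%, against 50.9% for all genes tested. The summed CPM of 6 stromal genes such as Pdgfrb and Prrx1 was 568 to 1486. Of these 6, Thy1 stayed at or below 0.107 CPM and Twist2 was at 2.99 to 19.7 CPM. Endothelial markers summed to 1.61 to 9.63 CPM, epithelial markers to 1.30 to 19.5 CPM and blood markers to 3.39 to 226 CPM, with the highest blood value, mostly Cd74, in O1. Within these lists Cdh5 of endothelium and Ptprc of blood stayed at or below 0.134 and 0.0379 CPM. Other members were higher, with Vwf at up to 6.48 CPM (A2), Kdr at up to 6.00 CPM (O3) and Lyz2 at up to 37.2 CPM (O1). The 6 osteoblast genes other than collagens, such as Alpl and Ibsp, summed to 49.1 to 148 CPM in the A libraries and 38.6 CPM in AC3. In the 10 libraries with osteogenic potential the sum was 187 to 3929 CPM. In OAC1, OA2 and O1 most of it was Alpl (232, 222 and 159 CPM), with Ibsp at 2.73, 1.02 and 1.84 CPM. Alpl was at 146 CPM in A1. Single members did not all follow the sum, since Phex was at 0 CPM in OA2 and O1 and at 5.03 CPM in AC3.

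Each collagen molecule is a triple helix of 3 chains, made as procollagen in the endoplasmic reticulum, where prolines and lysines are hydroxylated and chaperones assist folding. Fibrillar collagens are trimmed outside the cell and cross-linked into fibrils. Type I, of Col1a1 and Col1a2 chains, is the main organic component of bone, type III accompanies it in soft connective tissue, and type II is the fibrillar collagen of cartilage. Network collagens form sheets, among them type IV of basement membranes. Type VI makes beaded microfilaments around cells.

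Several collagen genes lie side by side in the genome, which bears on the values below because neighbours can be compared with one another. By RefSeq gene order the neighbouring pairs among the 42 are Col3a1 with Col5a2, Col4a3 with Col4a4 and Col9a1 with Col19a1 on chromosome 1, Col4a1 with Col4a2 on chromosome 8, Col6a1 with Col6a2 on chromosome 10 and Col4a5 with Col4a6 on chromosome X. On chromosome 9 Col6a4 and Col6a6 lie on either side of Col6a5. RefSeq promoter sequence was at hand for 25 of the 32 genes tested. The 250 bases before the annotated start are shown for 3 genes that the results turn on: Col1a2, a type I chain that was low in A libraries, Col3a1, a fibrillar chain that ranged widely, and Col15a1, which was low in O libraries. All are on the plus strand of GRCm38.p6, printed 5′ to 3′, with matches to CCAAT, to GGGCGG or to TATAAA, searched on both strands, in capitals. Col1a2 is at chr6:4505368-4505617, Col3a1 at chr1:45311288-45311537 and Col15a1 at chr4:47207762-47208011.
Col1a2: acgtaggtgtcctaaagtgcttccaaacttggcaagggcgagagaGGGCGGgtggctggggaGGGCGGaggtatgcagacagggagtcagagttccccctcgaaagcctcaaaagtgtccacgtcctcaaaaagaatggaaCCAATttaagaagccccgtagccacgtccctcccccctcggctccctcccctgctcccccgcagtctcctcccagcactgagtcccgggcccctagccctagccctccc
Col3a1: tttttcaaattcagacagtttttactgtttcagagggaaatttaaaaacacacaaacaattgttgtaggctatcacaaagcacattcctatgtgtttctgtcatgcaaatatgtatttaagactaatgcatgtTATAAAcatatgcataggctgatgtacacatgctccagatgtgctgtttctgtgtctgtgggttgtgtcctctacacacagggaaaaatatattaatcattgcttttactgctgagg
Col15a1: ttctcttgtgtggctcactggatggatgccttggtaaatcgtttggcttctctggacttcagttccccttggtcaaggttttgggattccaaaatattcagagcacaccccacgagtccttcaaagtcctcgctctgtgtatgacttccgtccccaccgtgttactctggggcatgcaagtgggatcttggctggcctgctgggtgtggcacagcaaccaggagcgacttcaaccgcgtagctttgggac

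In the Col1a2 window CCAAT began 109 bases before the start, and GGGCGG began 205 and 188 bases before it. TATAAA began 117 bases before the Col3a1 start, and the Col15a1 window held none of the 3. Over 32851 RefSeq promoter windows of the same kind CCAAT occurred in 33.8%, GGGCGG in 32.7% and TATAAA in 12.4%. Among the 25 collagen genes the numbers were 11 (44%), 17 (68%) and 4 (16%). A match describes letters and not a bound site.

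Collagen genes took up 3.34% ± 0.418 (SD, n = 3) of all counts in A libraries, 7.22% ± 0.968 in OAC, 8.85% ± 1.37 in OA and 9.16% ± 1.24 in O libraries. The range in A, 2.89% to 3.72%, did not meet the range of any other group, whose lowest library was OAC3 at 6.43%. The share was 10.5% in the OC3 pool (exact binomial 95% interval 10.46% to 10.48%) and 6.11% in the AC3 pool (6.10% to 6.12%). These intervals cover counting error only. Type I chains made up most of the difference: Col1a1 and Col1a2 together took 1.72% ± 0.430 of counts in A, 4.40% ± 1.08 in OAC, 6.18% ± 0.968 in OA and 6.88% ± 1.18 in O. Without these 2 genes the collagen share was 1.62% in A, 2.82% in OAC, 2.67% in OA and 2.28% in O.

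**Figure D1:**
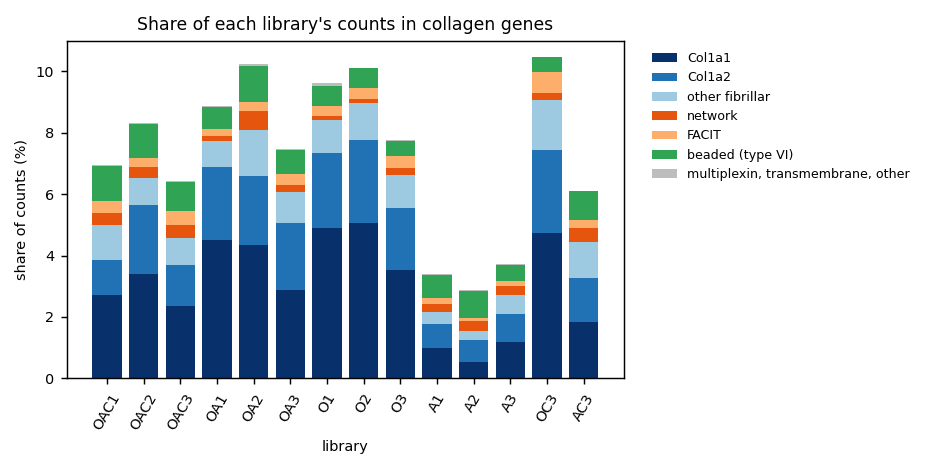
Share of each library's counts in collagen genes, in percent of all counts (y axis), for the 14 libraries (x axis), stacked by gene or class. The A libraries sit between 2.89% and 3.72% and every other library lies above 6%.

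The classes did not follow one order. Network collagens took 0.155% ± 0.0506 of counts in O, against 0.299% ± 0.0271 in A, 0.388% ± 0.0282 in OAC and 0.344% ± 0.255 in OA, where OA2 alone reached 0.637%. Beaded collagens took 0.601% ± 0.0968 in O and 0.728% ± 0.197 in A, with overlapping ranges, and 1.06% ± 0.115 in OAC. FACITs took 0.137% ± 0.0385 in A and 0.285% to 0.380% on average in the other 3 groups. On average O libraries were thus highest for fibrillar chains and lowest for network and beaded chains.

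Levels of different genes are compared only after division by the summed exon length of the deposited gene models, in CPM per kb. On this scale the mean over 14 libraries was 4765 for Col1a1 and 1504 for Col1a2, then 734 for Col6a1, 387 for Col5a2, 344 for Col5a1 and 324 for Col3a1. Col6a2 and Col6a3 stood at 241 each, Col4a1 at 212, Col12a1 at 188 and Col4a2 at 157. Among the genes tested Col17a1, a hemidesmosome component of epithelia, was lowest, at 0.197. The gene models of Col1a2 (12145 bases) and Col6a2 (8326 bases) are long for their proteins, which lowers their values on this scale by a constant factor.

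Differences between groups were tested with edgeR's quasi-likelihood F test, with Benjamini-Hochberg adjustment over the 13896 genes tested and a threshold of 0.05. Fold changes are given on the log2 scale with their standard error (SE). No collagen gene passed in any of the 9 comparisons, and over all genes this test called 1 gene in each comparison with A and none in the others. DESeq2, run as a second test on the same counts, passed between 0 and 7 collagen genes per comparison. A gene is therefore described below as passing DESeq2 where it did, with its edgeR value beside it. The 3 comparisons with A share the same A libraries, and their values are set side by side without being counted as separate support. In these cultures a lower level can come from fewer cells making a transcript or from less of it per cell, which cannot be told apart in bulk RNA.

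Comparing O with A asks how clones limited to bone differ from clones limited to fat. Type I chains, the type III chain Col3a1, Col5a2 and the FACITs Col12a1 and Col16a1 were higher in O, and the FACIT Col14a1 was lower. These 7 of 32 genes passed DESeq2, against a background of 3.02% of all genes tested. The 6 higher genes compare with 1.76% of all genes and the 1 lower gene with 1.26%. None passed edgeR (lowest adjusted p 0.123), which called 0.0072% of all genes, and 12 had an unadjusted edgeR p under 0.05, against 9.89%. All 3 O values lay above all 3 A values for 12 genes, against 7.36% of all genes, and below them for 4, against 8.28%. The median log2 fold change of the 32 was 0.62, and that of all genes 0.03. All 10 fibrillar chains had a higher fitted mean in O, as did 52.4% of all genes, with a median of 1.64, while 6 of the 7 network chains had a lower one, with a median of -0.26. Without OA2 and O1 10 genes passed DESeq2, and without A2 4 did. Calls over all genes moved too, from 420 with every library to 490 and 242.

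In OA against A 6 genes passed DESeq2, against 0.936% of all genes in either direction and 0.655% higher, and all were higher in OA: Col1a1, Col1a2, Col3a1, Col12a1, Col6a3 and Col8a2. edgeR passed none, against 0.0072% of all genes, with 12 at an unadjusted p under 0.05, against 5.27%. All OA values lay above all A values for 11 genes and below them for 2, against 5.16% and 5.81% of all genes. The median log2 fold change was 0.46, against -0.03 over all genes. It was -0.12 without OA2, 0.12 without OA3, 0.28 without A1 and -0.10 without OA2 and O1. Without OA2 3 genes passed DESeq2, of 124 calls over all genes, against 130 with every library.

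OAC against A gave 5 genes that passed DESeq2, against 0.41% of all genes in either direction and 0.36% higher, and all were higher in OAC: Col1a1, Col3a1, Col12a1, Col6a3 and Col8a2. edgeR passed none, against 0.0072% of all genes, with 9 at an unadjusted p under 0.05, against 3.58%. All OAC values lay above all A values for 12 genes and below them for 4, against 4.79% and 6.02% of all genes. The median was 0.50, against -0.03 over all genes. Single libraries weighed on the count of DESeq2 calls, which was 1 without OAC2, 2 without A1 and 3 without A2. Calls over all genes were 14, 40 and 38 in these settings, against 57 with every library.

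Among the 3 groups with osteogenic potential few collagen genes passed DESeq2. OA against O gave 1 gene that passed DESeq2, Col15a1, which was higher in OA, against 0.302% of all genes in either direction and 0.194% higher. edgeR passed 0 there, against 0% of all genes, with 5 (15.6%) at an unadjusted p under 0.05, against 5.43%. All OA values lay above all O values for 4 genes and below them for 4, against 4.56% and 3.63%. OAC against O also gave 1 gene that passed DESeq2, again Col15a1 and again higher than in O, against 0.727% in either direction and 0.497% higher. edgeR passed 0, against 0% of all genes, with 9 (28.1%) at an unadjusted p under 0.05, against 6.02%. All OAC values lay above all O values for 5 genes and below them for 5, against 5.74% and 5.79%. OAC against OA gave 0 genes by edgeR and 0 by DESeq2, against 0% of all genes for both, with 1 at an unadjusted edgeR p under 0.05 (Col22a1), against 1.17%. No collagen gene separated the OAC from the OA libraries, against 4.93% of all genes that did. The single DESeq2 gene in OA against O was lost without OA2, and 4 passed without OA3. Calls over all genes were 9 and 304 in these settings, against 42 with every library. In OAC against O none passed without OAC1, without OAC3 or without O1, the 1 that passed without OAC2 was lower in OAC, and 3 passed without OA2 and O1. Calls over all genes there, 101 with every library, were 63 without OAC1, 89 without OAC3 and 36 without O1. They were 30 without OAC2 and 130 without OA2 and O1.

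Type I collagen carried the clearest difference. Col1a1 (ENSMUSG00000001506, 52 exons) stood at 9335, 4956 and 11231 CPM in the 3 A libraries. It stood at 55512, 49103 and 33793 CPM in O, at 45130, 49060 and 27694 CPM in OA and at 28249, 36170 and 22487 CPM in OAC. Every A library was below every library of the other 3 groups. The log2 fold change was 2.44 ± 0.39 (SE) for O against A (edgeR adjusted p = 0.123, DESeq2 adjusted p = 7.4e-08). It was 2.26 ± 0.39 for OA against A (edgeR 0.374, DESeq2 3.63e-06) and 1.77 ± 0.38 for OAC against A (edgeR 1, DESeq2 0.00152). The DESeq2 call held with each library left out in turn, except for OAC against A without OAC2 (1.63, adjusted p 0.118).

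Col1a2 (ENSMUSG00000029661, 48 exons), which supplies the third chain of the type I helix, showed the same arrangement at a smaller size. Its values were 7543, 6935 and 8742 CPM in A and 27602, 26240 and 19427 CPM in O. In OA they were 23766, 25447 and 21202 CPM and in OAC 11617, 23764 and 12900 CPM, so the A libraries again lay below all others. The log2 fold change was 1.66 ± 0.31 for O against A (edgeR adjusted p = 0.151, DESeq2 1.34e-05) and 1.60 ± 0.31 for OA against A (edgeR 0.382, DESeq2 9.23e-05). Both DESeq2 calls held with each library left out. For OAC against A it was 1.06 ± 0.31 and passed neither test (DESeq2 0.06). Per kb the ratio of Col1a1 to Col1a2 was 1.32 to 2.38 in the A libraries, 2.42 to 3.57 in OA, 3.22 to 3.72 in O and 2.82 to 4.50 in OAC, and 3.26 in OC3 and 2.41 in AC3.

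The A libraries and AC3 had the lowest osteoblast sums of the 14 libraries (38.6 to 148 CPM) and also the lowest Col1a1 levels (4956 to 18325 CPM). Among the 10 libraries with osteogenic potential the osteoblast sum and Col1a1 did not rank the libraries alike. O1 had 187 CPM of osteoblast markers and the highest Col1a1 level of the 14 libraries, OA2 had 240 CPM and 49060 CPM of Col1a1, and O2 had 3929 CPM and 49103 CPM. Most of the osteoblast sum in O1 and OA2 was Alpl, at 159 and 222 CPM. The part of the osteoblast genes in the difference between groups was not tested.

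Col3a1 (ENSMUSG00000026043), the type III chain, was at 675, 300 and 464 CPM in A and at 6001, 809 and 2581 CPM in O. In OA it was at 2280, 5591 and 2152 CPM and in OAC at 3178, 3312 and 1481 CPM. A libraries lay below all others, with O2 close to A1 and the O libraries far apart. Log2 fold changes were 2.71 ± 0.71 for O (edgeR adjusted p = 0.248, DESeq2 0.0037), 2.80 ± 0.71 for OA (0.649, 0.00793) and 2.47 ± 0.70 for OAC (1, 0.0455), each against A. The DESeq2 call for O was lost without O1 (1.83, adjusted p 0.13) and without A2 (2.54, 0.0546). That for OA was lost without OA2 (2.22, 0.111), A2 (2.60, 0.0986) or A3 (2.82, 0.0557), and that for OAC without any one of OAC1, OAC2, A1, A2 and A3 (log2 fold change 2.29 to 2.87, adjusted p 0.0605 to 0.534). Col3a1 and its neighbour Col5a2 did not keep a fixed ratio, which per kb ran from 0.132 in O2 to 1.85 in O1.

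Type V chains nucleate fibrils together with type I. Col5a2 was at 865, 1106 and 2860 CPM in A and at 3706, 7005 and 4265 CPM in O, with OA at 2862, 4709 and 4066 CPM and OAC at 2828, 3033 and 4003 CPM. A3 was close to the lowest OA and OAC libraries, A1 and A2 far below them. For O against A the log2 fold change was 1.63 ± 0.46 (edgeR adjusted p = 0.259, DESeq2 0.0143), and the DESeq2 call was lost without O2 (1.37, adjusted p 0.154), A1 (1.38, 0.107) or A2 (1.48, 0.146). Col5a1 was at 1953, 1231 and 1801 CPM in A, 2261, 2969 and 2782 CPM in O, 3339, 5956 and 2825 CPM in OA and 5202, 2447 and 2285 CPM in OAC. All A values were below all others, yet Col5a1 passed neither test in any comparison. Col5a3, a less abundant type V chain, ran from 4.46 CPM in O2 to 203 CPM in O1, the widest pair coming from one group.

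**Figure D2:**
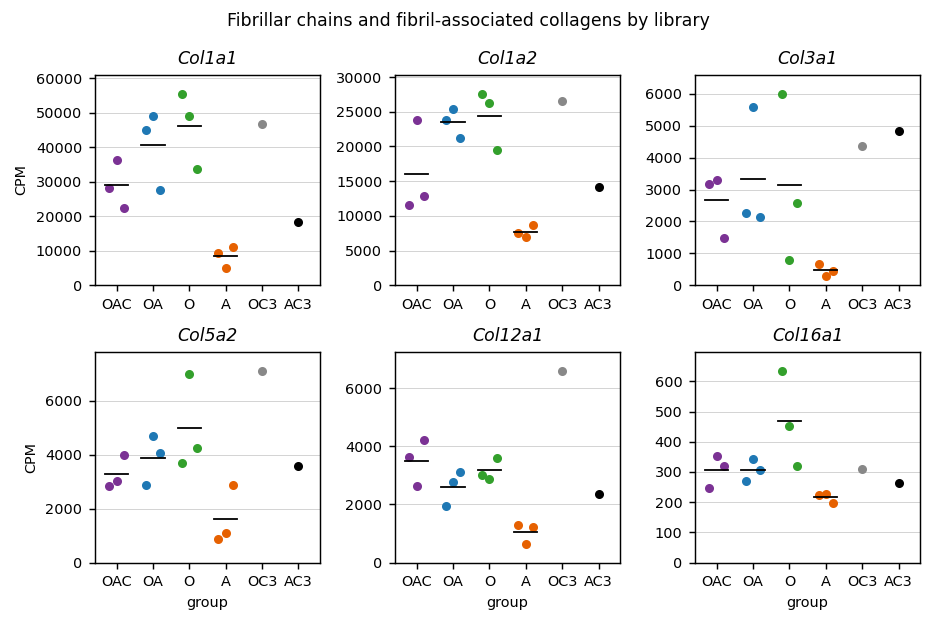
CPM (y axes, from 0) of 4 fibrillar chains and 2 FACITs by group (x axes), where points are libraries and horizontal lines the means of 3 libraries. Col1a1, Col1a2, Col3a1, Col12a1 and Col16a1 are lower in all 3 A libraries than in every library of OAC, OA and O, while for Col5a2 A3 (2860 CPM) reaches the lowest OAC library.

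Other fibrillar chains varied widely within groups. Col2a1, the cartilage chain, was at 241, 99.4 and 18.2 CPM in OAC, 16.2, 277 and 85.3 CPM in OA, 27.7, 127 and 298 CPM in O and 40.3, 43.9 and 192 CPM in A. OC3 had 160 CPM and AC3 60.96 CPM, so the 5 libraries with chondrogenic potential, at 18.2 to 241 CPM, fell inside the range of the other 9. Of 9 cartilage genes other than collagens 7 reached 1 CPM in some library and 4 reached 10 CPM, with Sox9 and Comp highest, and their sum was 20.3 to 57.6 CPM. Acan, the main cartilage proteoglycan, was at or below 0.672 CPM in 13 libraries and at 5.98 CPM in OC3. Col11a1, whose chain joins type II and type V fibrils, was at 9.53, 18.3 and 203 CPM in A, 55.1, 527 and 439 CPM in O, 33.8, 102 and 280 CPM in OA, 272, 304 and 273 CPM in OAC and 1330 CPM in OC3. OAC libraries lay close together and above all 3 A libraries, which themselves were far apart. Col11a2 reached 42.6 CPM in OA3 and 34.3 CPM in OC3 and was at or below 23.5 CPM elsewhere. Col27a1, a fibrillar chain of cartilage, was at 24.3 CPM in O1 and 40.6 to 116 CPM in the other 13.

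Of the FACITs, Col12a1, which binds type I fibrils, was the most abundant. It was at 1304, 651 and 1216 CPM in A, 3029, 2891 and 3593 CPM in O, 1940, 2788 and 3112 CPM in OA and 3649, 2648 and 4218 CPM in OAC. No library of these 3 groups overlapped with A. Log2 fold changes against A were 1.58 ± 0.32 for O (edgeR adjusted p = 0.16, DESeq2 0.000101), 1.31 ± 0.31 for OA (0.649, 0.00793) and 1.73 ± 0.32 for OAC (1, 5.92e-05). The DESeq2 calls for O and for OAC held with each library left out, and that for OA was lost without OA2 (1.26, adjusted p 0.055) and without OA3 (1.20, 0.0633).

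Col16a1, a minor fibril-associated chain, was at 225, 226 and 198 CPM in A and 635, 454 and 319 CPM in O, with OA at 269, 343 and 306 CPM and OAC at 247, 353 and 319 CPM. The lowest library of each other group was above the highest A library. For O against A the log2 fold change was 1.12 ± 0.26 (edgeR adjusted p = 0.194, DESeq2 0.00404), and the DESeq2 call held with each library left out.

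Col14a1, a FACIT of soft connective tissue, was set by a few libraries. Its reads numbered 1061, 13 and 356 in A, 7, 1 and 19 in O, 76, 47 and 36 in OA and 768, 1 and 15 in OAC, with 1577 in AC3 and 12 in OC3. High values thus came from A1, A3, OAC1 and AC3, and A2 lay among the O libraries. The log2 fold change for O against A was -5.57 ± 2.09 (edgeR adjusted p = 0.422, DESeq2 0.0174). It passed DESeq2 with O3 left out, was lost without O1 (-5.66, adjusted p 0.07) and without O2 (-4.99, 0.102), and had no adjusted p without A1, A2 or A3. With OA2 and O1 both left out it was also lost (-5.69, DESeq2 adjusted p 0.117).

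The remaining FACITs were scarce. Col22a1, a chain of tissue junctions, was at 3.05, 2.35 and 3.22 CPM in O, 18.2 CPM in OA3 and 12.4 CPM in OC3, and no higher than 0.607 CPM in the other 9 libraries. Col20a1 was at 2.93, 4.09 and 3.07 CPM in O and at or below 3.25 CPM elsewhere. Col9a3 was the only type IX chain that passed the filter, at 1.15 to 7.38 CPM.

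The type IV pair, the scaffold of basement membranes, was lowest in O libraries among the groups of 3. Col4a1 (ENSMUSG00000031502) was at 558, 394 and 876 CPM in O and at 1367, 1469 and 1496 CPM in A, without overlap. It was at 1987, 1771 and 2071 CPM in OAC and at 753, 3473 and 1030 CPM in OA, where OA2 had the highest level of all libraries. Col4a2 measured 458, 400 and 602 CPM in O libraries, 859, 923 and 1079 CPM in A libraries, 1442, 1327 and 1267 CPM in OAC and 720, 2876 and 671 CPM in OA. All 3 OAC libraries were above all A and O libraries for both genes, and A above O. None of these differences passed either test (O against A -1.24 ± 0.51 for Col4a1 and -0.97 ± 0.49 for Col4a2, DESeq2 adjusted p 0.252 and 0.461). Col4a1 varied 8.81-fold over the 14 libraries, while the ratio of Col4a1 to Col4a2 per kb stayed between 0.958 and 1.59.

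Smooth muscle genes, which stromal cells in culture also express, were summed beside the type IV pair, since pericytes and smooth muscle cells make basement membrane. The 5 genes, all present, summed to 3227 to 12344 CPM in O, 5723 to 7315 CPM in A, 4533 to 19384 CPM in OA and 6061 to 11649 CPM in OAC. The sum was lowest in O2 (3227 CPM), where Col4a1 and Col4a2 were lowest among the groups of 3 libraries, and highest in OA2 (19384 CPM), where both were highest. It was 12344 CPM in O1, where Col4a1 was at 558 CPM, so sum and type IV level did not go together in every library. Their part in the type IV levels was not tested. The endothelial markers, with Vwf and Kdr highest, summed to 1.61 to 9.63 CPM, and their part was not tested either.

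Of the other type IV chains Col4a5 measured 109, 161 and 134 CPM in O libraries, 124, 172 and 146 CPM in A libraries, 27.3, 96.3 and 94.4 CPM in OA and 91.4, 89.0 and 43.1 CPM in OAC. OAC and OA libraries were all below the O and A libraries, without passing either test. Its neighbour Col4a6 ran from 0.551 CPM in OA1 to 24.4 CPM in A2, and the ratio of Col4a5 to Col4a6 per kb spanned 8.38 to 145, unlike that of the Col4a1 and Col4a2 pair.

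The short-chain network collagens were uneven. Col8a2, which with Col8a1 forms lattices in vessel walls and the cornea, was at 7.23, 32.8 and 32.8 CPM in A, 164, 80.7 and 124 CPM in O, 70.6, 660 and 145 CPM in OA and 97.0, 494 and 126 CPM in OAC. Every A library was below every other, and OA2 and OAC2 stood far above the rest of their groups. Against A the log2 fold change was 3.59 ± 0.98 for OA (edgeR adjusted p = 0.649, DESeq2 0.0079) and 3.30 ± 0.97 for OAC (1, 0.0277). The call for OA was lost without OA2 (2.16, adjusted p 0.254) or A1 (3.20, 0.0699), and that for OAC without OAC2 (2.24, 1), A1 (2.94, 0.195), A2 (3.65, 0.076) or A3 (3.64, 0.0696). With OA2 and O1 both left out the DESeq2 call for OA was lost (2.16, adjusted p 0.149) and that for OAC held (3.33, 0.000519). Col8a1 was at 118, 300 and 214 CPM in A, 59.3, 207 and 278 CPM in O, 78.3, 89.4 and 263 CPM in OA, 325, 144 and 473 CPM in OAC and 525 CPM in OC3, with overlap between all 4 groups. The ratio of Col8a1 to Col8a2 per kb was 5.73 to 14.3 in A and 0.119 to 3.31 in all other libraries. The 2 genes differ in GC content (44.9% and 58.0%), and the ratio was not adjusted for it. In OA2, which had the lowest ratio, the GC trend was -1.27 log2 units at Col8a1 and 0.37 at Col8a2. In O1 it was -0.83 and 0.42. Col10a1, the chain of hypertrophic cartilage, was at 61.7, 10.8 and 38.7 CPM in A, 39.1, 1.58 and 24.8 CPM in O, 5.51, 4.82 and 13.1 CPM in OA and 19.9, 22.5 and 12.1 CPM in OAC, with OC3 at 8.22 and AC3 at 23.4 CPM. The 5 libraries with chondrogenic potential, at 8.22 to 23.4 CPM, fell inside the range of the others.

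Type VI microfilaments are built from equal parts of an α1, an α2 and an α3 chain. Col6a1 was at 3882, 4057 and 2318 CPM in A, 3449, 2432 and 2143 CPM in O, 2617, 4329 and 3012 CPM in OA and 4833, 4529 and 3111 CPM in OAC, and groups overlapped. Col6a2 followed it, at 2369, 2486 and 1284 CPM in A, 1792, 1356 and 1118 CPM in O, 1710, 3035 and 1805 CPM in OA and 3374, 3055 and 1885 CPM in OAC. The ratio of the 2 neighbours per kb kept to 2.70 to 3.65 over all 14 libraries. Col6a4, an α3-like chain, was scarce, at 9.12, 10.8 and 14.98 CPM in A, 13.8 CPM in OAC1, 12.1 CPM in AC3, 0 reads in O2 (which allows up to 3) and 0.986 to 6.16 CPM in the other 8 libraries.

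Col6a3, from another locus, went its own way. It was at 1101, 1909 and 1214 CPM in A, 2196, 2596 and 1439 CPM in O, 2878, 6093 and 2618 CPM in OA and 3708, 4079 and 3888 CPM in OAC. OA and OAC libraries were all above all O and A libraries, while O and A overlapped. Against A the log2 fold change was 1.46 ± 0.37 for OA (edgeR adjusted p = 0.649, DESeq2 0.0255) and 1.47 ± 0.37 for OAC (1, 0.034). The call for OA was lost without OA2 (0.97, adjusted p 0.18), A1 (1.35, 0.215) or A3 (1.39, 0.162). That for OAC was lost without any one of OAC1, OAC2, OAC3, A1 and A3 (log2 fold change 1.38 to 1.56, adjusted p 0.0848 to 0.346). With OA2 and O1 both left out the DESeq2 call for OA was lost (0.97, adjusted p 0.119) and that for OAC held (1.49, 0.000263). Per kb the ratio of Col6a1 to Col6a3 was 9.60, 5.78 and 5.19 in A1, A2 and A3 and 1.72 to 4.27 in the other 11 libraries.

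**Figure D3:**
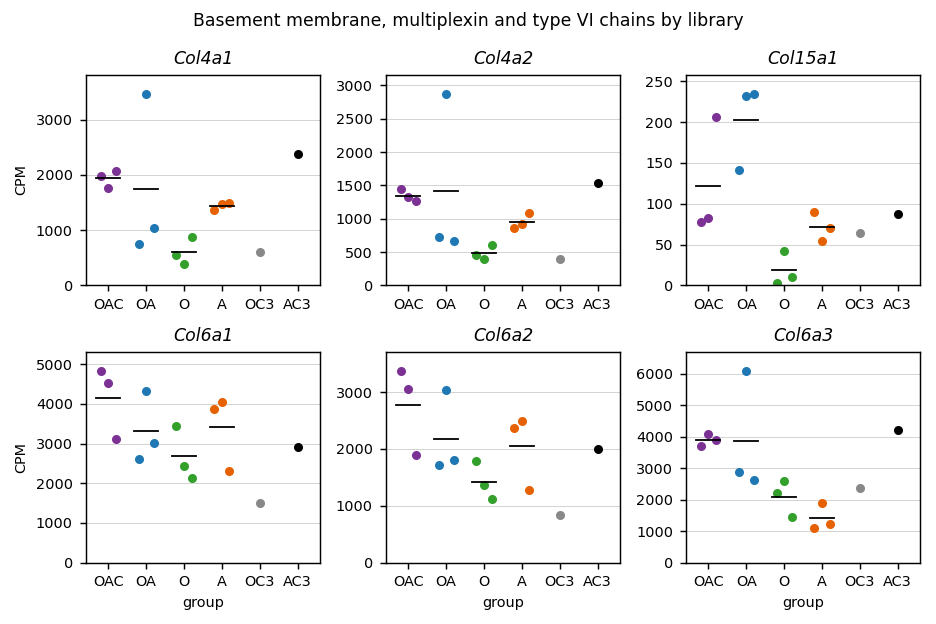
CPM (y axes, from 0) of the type IV pair, Col15a1 and the 3 main type VI chains by group (x axes), where points are libraries and horizontal lines the means of 3 libraries. Col4a1 and Col4a2 are both highest in OA2 and low in O, Col15a1 is lowest in the 3 O libraries, and Col6a3 is higher in all OAC and OA libraries than in all O and A libraries.

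The multiplexins are basement membrane proteoglycans whose ends can be released as restin and endostatin. Col15a1 (ENSMUSG00000028339) was at 2.29, 42.1 and 10.5 CPM in O, the lowest 3 values of the 14 libraries. It was at 90.1, 54.9 and 70.0 CPM in A, 141, 232 and 235 CPM in OA, 77.7, 82.7 and 206 CPM in OAC, 64.2 CPM in OC3 and 86.8 CPM in AC3. The log2 fold change against O was 3.47 ± 0.86 for OA (edgeR adjusted p = 0.851, DESeq2 0.00763) and 2.74 ± 0.83 for OAC (0.73, 0.044). The call for OA was lost without OA2 (3.36, adjusted p 0.105), and that for OAC without any one of OAC1, OAC2, OAC3, O1 and O3 (log2 fold change 2.16 to 3.01, adjusted p 0.0693 to 0.283). With OA2 and O1 both left out the DESeq2 calls for OA (2.86, adjusted p 0.0331) and OAC (2.25, 0.0227) held. Col18a1 was at 1195 CPM in O1 and 29.6 and 88.7 CPM in O2 and O3, so that the extremes of all libraries came from one group. It was at 197, 252 and 216 CPM in A, 50.9, 291 and 177 CPM in OA and 152, 154 and 89.0 CPM in OAC.

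Transmembrane and other collagens contributed little. Col23a1 was at 6.87, 7.30 and 4.57 CPM in O, 10.8 CPM in OC3 and 1.07, 1.98 and 0.496 CPM in A, without overlap between O and A, and passed neither test (2.40 ± 0.89, DESeq2 adjusted p 0.092). Col17a1 stayed between 0.440 and 1.84 CPM. Col13a1, a transmembrane chain of muscle junctions and bone, did not pass the filter, and its highest counts were 23 reads in O2 and 19 in OC3. Col7a1, which anchors epithelia, reached 67.9 CPM in OAC1 and was at or below 27.8 CPM elsewhere.

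**Figure D4:**
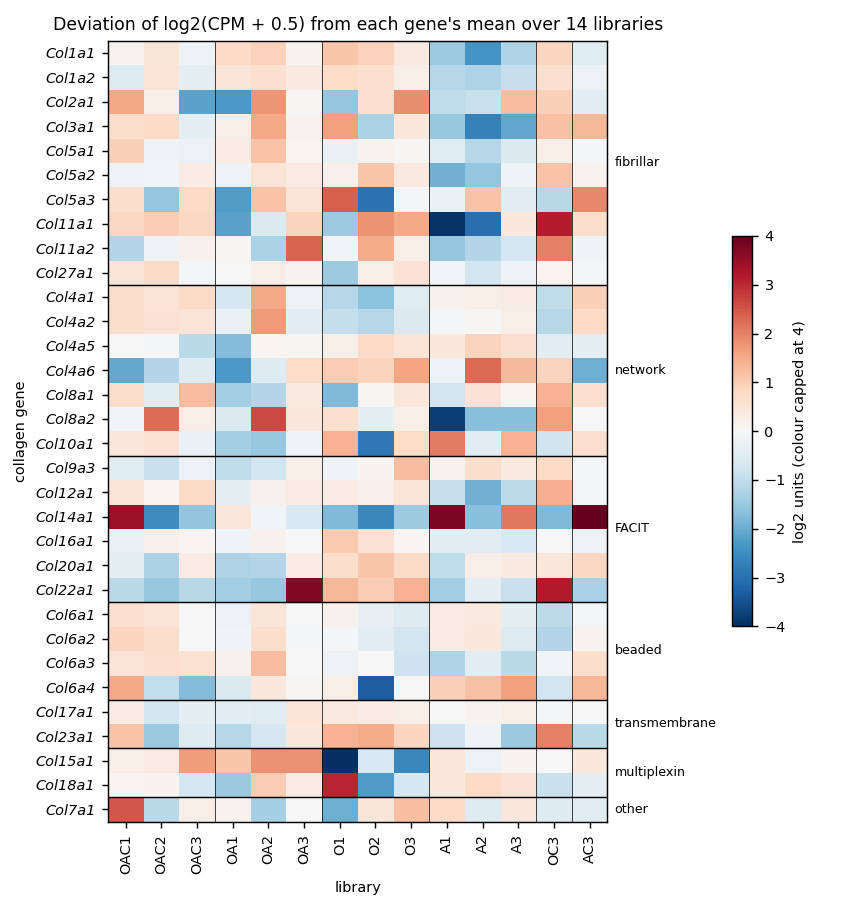
Deviation of log2(CPM + 0.5) from each gene's mean over the 14 libraries, for the 32 collagen genes tested (rows, by class) and the 14 libraries (columns), with red above and blue below the mean. Col1a1, Col1a2, Col3a1 and Col12a1 are blue in A1, A2 and A3, Col15a1 is blue in the O libraries, and Col5a3, Col11a1, Col14a1 and Col18a1 change colour within groups.

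The yes or no of each lineage was also fitted over all 14 libraries, one term per potential. By DESeq2, but not by edgeR, Col1a1, Col1a2, Col12a1 and Col8a2 had higher fitted levels with osteogenic potential. The same held for Col4a1, Col4a2 and Col15a1 with adipogenic potential. Of these genes only Col1a1 and Col4a2 had ranges that did not overlap between libraries with and without the potential. For osteogenic potential 4 of 32 genes passed DESeq2, against 1.27% of all genes in either direction and 0.82% higher, and all 4 were higher. edgeR passed 0, against 0% of all genes, with 6 at an unadjusted p under 0.05, against 7.84%. Col1a1 had a median of 40650 CPM (22487 to 55512) in the 10 libraries with it and 10283 CPM (4956 to 18325) in the 4 without, and was the 1 collagen gene whose ranges did not overlap, against 0.604% of all genes in that direction. Its log2 fold change was 1.67 ± 0.36 (edgeR adjusted p = 0.352, DESeq2 0.0012), and Col12a1 followed with 1.04 ± 0.26 (0.352, 0.00922). Both kept the DESeq2 call with each of the 14 libraries left out in turn. Col1a2 (1.08 ± 0.30, edgeR 0.369, DESeq2 0.0299) lost it without OAC2, OA1, OA2, OA3, A1, A2 or A3, with log2 fold changes of 0.99 to 1.09 and adjusted p-values of 0.0705 to 0.176. Col8a2 (2.68 ± 0.81, edgeR 0.453, DESeq2 0.0203) lost it without OAC2, OA2, A1, A2 or A3, at 1.77 to 2.71 and 0.0581 to 0.112. The count was 2 without any one of OAC2, OA2, A1, A2 and A3, and without OA2 and O1 together. Over all genes 82 to 288 passed DESeq2 in these settings, against 177 with every library. The median log2 fold change was 0.38, against -0.01 over all genes, and was 0.19 with a GC offset.

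For adipogenic potential 3 of 32 genes passed DESeq2, against 1.45% of all genes in either direction and 0.979% higher, and all 3 were higher. edgeR passed 0, against 0% of all genes, with 10 at an unadjusted p under 0.05, against 9.65%. Col4a1 had a median of 1634 CPM (753 to 3473) in the 10 libraries with adipogenic potential and 578 CPM (394 to 876) in the 4 without. Col4a2 had 1173 CPM (671 to 2876) against 430 CPM (400 to 602), the only collagen gene without overlap, against 1.05% of all genes in that direction. Col15a1 had 88.5 CPM (54.9 to 235) against 26.3 CPM (2.29 to 64.2), overlapping through OC3 and A2. The other type IV chains tested had lower fitted means with adipogenic potential and passed neither test, at -1.73 ± 0.74 for Col4a6 (edgeR adjusted p = 0.489, DESeq2 0.274) and -0.50 ± 0.38 for Col4a5 (0.685, 0.626).

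The fitted differences were 1.54 ± 0.40 for Col4a1 (edgeR adjusted p = 0.311, DESeq2 0.0187), 1.55 ± 0.40 for Col4a2 (0.299, 0.0164) and 2.49 ± 0.73 for Col15a1 (0.33, 0.0199). Col4a1 lost the DESeq2 call without OA2 (0.95, adjusted p 0.0903), O2 (1.39, 0.099) or OC3 (1.42, 0.204), and Col4a2 without O2 (1.48, 0.0781) or OC3 (1.41, 0.199). Col15a1 lost it without OA2 (2.34, 0.0928) or O3 (2.18, 0.0837) and had no adjusted p without OC3. Without OA2 and O1 the difference was 0.99 for Col4a1 (DESeq2 0.0685), 0.97 for Col4a2 (0.0277) and 1.95 for Col15a1 (0.0323). The count of 3 became 0 without OC3, 1 without OA2 or without O2, 6 without O1 and 9 (4 higher, 5 lower) without OA3. Calls over all genes, 202 with every library, were 59 without OC3, 72 without OA2 and 123 without O2. They were 452 without O1 and 659 without OA3. The median over the 32 was -0.41, against -0.04 over all genes, and was -0.17 without O1, -0.27 without OA1 and -0.18 without OA2 and O1.

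**Figure D5:**
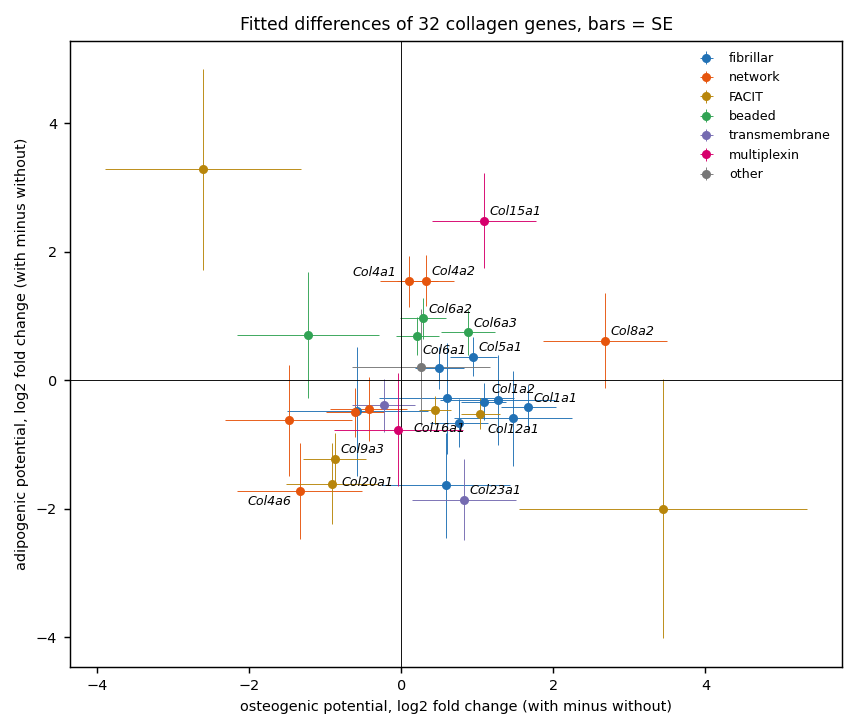
Fitted log2 fold change of each of the 32 collagen genes for osteogenic potential (x axis) and adipogenic potential (y axis), with bars of 1 SE, coloured by class and named where an unadjusted edgeR p is under 0.05. Col1a1 and Col12a1 lie to the right of 0, Col4a1, Col4a2 and Col15a1 above it, and Col14a1 and Col22a1, unnamed at the upper left and lower right, have the widest bars.

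For chondrogenic potential 0 of 32 genes passed either test, against 0.0216% of all genes by DESeq2 and 0% by edgeR, and 2 had an unadjusted edgeR p under 0.05, against 5.12%. These were Col12a1 (0.77 ± 0.21) and Col8a1 (1.11 ± 0.43), both with an edgeR adjusted p of 0.809. No collagen gene separated the 5 libraries with chondrogenic potential from the other 9, against 0.166% of all genes. For the cartilage chain Col2a1 the fitted difference was -0.16 ± 0.77 (edgeR adjusted p = 0.942), and its sign depended on the processing. The median over the 32 genes was 0.10, against -0.02 over all genes, and ran from 0.01 without AC3 to 0.24 without OA2.

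The OC3 and AC3 pools have no replicate, and their values are set beside the nearest group without a test. AC3 was above all 3 A libraries for 18 of the 32 genes, below all for 4 and within their range for 10. The share of all genes in each position was not determined, so these counts are not read as a result about collagens. Col3a1 was at 4845 CPM in AC3 (exact Poisson 95% interval 4817 to 4872), 7.18 times the highest A library. Col8a2 was 3.26 times, Col6a3 (4218 CPM, 4192 to 4243) 2.21 times and Col1a1 (18325 CPM, 18272 to 18378) 1.63 times the highest A library. Col1a1 in AC3 was at the same time below all OAC, OA and O libraries, and the Col3a1 to Col1a1 ratio per kb, 0.207, was the highest of the 14 libraries.

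OC3 was above all 3 O libraries for 10 genes, below all for 7 and within their range for 15. These counts too have no share over all genes beside them and are not read as a result about collagens. Col11a1 was at 1330 CPM (1316 to 1344), 2.52 times the highest O library, Col12a1 at 6602 CPM (6571 to 6633), 1.84 times, and Col22a1 at 12.4 CPM (11.1 to 13.8), 3.85 times. Col6a1 (1492 CPM, 1477 to 1507) and Col6a2 were below every O library and every other library. The intervals cover counting error only and not the difference between clones.

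Genes that fold, process or bind collagen were taken in 3 lists. Of 19 genes for folding and export 17 were tested. By DESeq2 3 were higher in O than in A, against 1.76% of all genes: P4ha1 and P4ha2, catalytic subunits of the prolyl 4-hydroxylase that stabilises the helix, and Lepre1, a prolyl 3-hydroxylase. P4ha1 measured 773, 565 and 372 CPM in O libraries but 164, 192 and 181 CPM in A libraries, without overlap (1.67 ± 0.28, edgeR adjusted p = 0.126, DESeq2 4.92e-06). The fitted differences of P4ha2 and Lepre1 were 0.95 ± 0.27 (edgeR 0.279, DESeq2 0.0411) and 1.01 ± 0.26 (0.234, 0.0135). For osteogenic potential Lepre1 (0.81 ± 0.20, edgeR 0.352, DESeq2 0.0178) and Fkbp10, a chaperone of procollagen (0.85 ± 0.23, 0.362, 0.0391), were higher, against 0.82% of all genes. No gene of this list passed DESeq2 in the other 7 comparisons, and edgeR passed none in any of the 9.

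Of 12 processing and cross-linking genes 11 were tested. Adamts14, which removes the amino-terminal propeptide, was lower in OA than in A (-1.78 ± 0.41, edgeR adjusted p = 0.649, DESeq2 0.0125) and lower with osteogenic potential (-1.46 ± 0.33, 0.352, 0.00796). Its levels were 54.5, 55.2 and 59.0 CPM in A, 34.6 CPM in AC3 and 11.4 to 29.1 CPM in the other 10 libraries. Of 10 receptor and uptake genes 7 were tested, and Itga10, the α10 chain of a collagen-binding integrin, was higher in O than in A (3.12 ± 1.02, edgeR adjusted p = 0.347, DESeq2 0.0195) and with osteogenic potential (2.83 ± 0.84, 0.42, 0.0119). It was at 5.09, 1.98 and 20.5 CPM in A, 5.43 CPM in AC3 and 13.7 to 213 CPM in the other 10 libraries. Over all genes DESeq2 called 0.936% in OA against A, 3.02% in O against A and 1.27% for osteogenic potential, in either direction. No other gene of these 2 lists passed DESeq2, and none passed edgeR, in any of the 9 comparisons.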

How the data were processed

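Strand-specific libraries of poly(A) RNA were sequenced from 14 samples. The deposited values are raw counts per Ensembl gene on mm9, per the file headers, and the submitters' processing notes name CASAVA 1.8.0 and bedtools 2.11, with no further counting settings given in the sources used here. The deposited table also gives exon numbers and exonic lengths in other columns. Counts were tested as deposited with edgeR 4.0.16 (TMM scaling, quasi-likelihood F test, robust) in R 4.3.3, on genes at 1 CPM or more in 3 libraries, with 6 group means for pairwise comparisons and 3 yes or no terms for potentials, and again with DESeq2 1.42.0. CPM use the TMM-scaled totals, 16888190 to 26076539 counts before scaling, so counting error is small beside the spread between clones for all but the scarcest genes. Scripts were tested on simulated data. Alternatives were other scaling and filters, a GC offset, a replicate block and leaving out libraries. DESeq2 without each library was chosen after seeing the data. Genes named were the main chains of each class, those that passed either tool, and class extremes. Reads shared between overlapping genes may be counted to both. Where a listed symbol stood for 2 rows (P4ha2) the row with more counts was used. The family, its classes, the marker lists and the lists of folding, processing and receptor genes were chosen with earlier results of these data known.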

Additional observations from a re-analysis of the deposited data

Results flagged for a closer look

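In 10 of 132 groupings of 4 to 10 libraries, for 22 collagen genes, a library lay far from the others. The measure was the gap to its nearest neighbour as a share of the whole range. Gap and range were both taken on log2 CPM, while the levels below are printed as CPM. Chance alone sets apart about 1 in 20 groupings, and groupings by lineage reuse the same libraries.

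Among the 5 libraries with chondrogenic potential OC3 stood apart for 4 genes: Col11a1 at 1330 CPM with the next library at 304 CPM (gap 0.883 of the range), Col6a3 at 2366 CPM with the next at 3708 CPM (0.777), Col4a1 at 598 CPM with the next at 1771 CPM (0.787) and Col4a2 at 402 CPM with the next at 1267 CPM (0.855). In the same 5 libraries Col15a1 was high in OAC3, at 206 CPM with the next at 86.8 CPM (0.741).

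Among the 4 libraries without adipogenic potential Col1a2 was low in O3, at 19427 CPM with the next at 26240 CPM (0.856), and Col14a1 was low in O2, at 1 read or 0.0405 CPM with the next at 0.445 CPM (0.836). Among the 4 without osteogenic potential Col4a1 was high in AC3, at 2375 CPM with the next at 1496 CPM (0.837). Among the 9 without chondrogenic potential Col4a2 was high in OA2, at 2876 CPM with the next at 1079 CPM (0.497), and Col4a5 was low in OA1, at 27.3 CPM with the next at 94.4 CPM (0.674).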

How the results depend on the processing

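By edgeR the count of collagen genes that passed was 0 in all 9 comparisons under every scaling, filter, GC offset, replicate block and left-out library tried. DESeq2 passed 7 genes for O against A, 6 for OA against A, 5 for OAC against A, 1 each for OA against O and OAC against O, 4 for osteogenic and 3 for adipogenic potential, and 0 for the other 2. All 27 gene and comparison pairs that passed DESeq2 kept their direction under all alternatives. The median log2 fold change of the 32 genes moved with the setting. For O against A it was 0.50 by total counts, 0.44 with a replicate block, 0.48 with the block and a GC offset, and 0.44 to 0.54 with 1 library left out. For OA against A it was -0.10 without OA2 and O1 and -0.12 to 0.61 with 1 left out, for OAC against A 0.34 to 0.61, and for OA against O -0.41 to 0.01. For OAC against O it was -0.27 without the block and 0.18 with it, 0.10 with block and GC offset, 0.19 without OA2 and O1, and -0.45 to 0.16 with 1 left out. For OAC against OA it was 0.38 without OA2 and O1 and -0.37 to 0.41 with 1 left out. For osteogenic potential it was 0.19 with the GC offset, 0.14 with block and GC offset, and 0.30 to 0.48 with 1 left out. For adipogenic potential it was -0.28 with the block, -0.18 without OA2 and O1, and -0.43 to -0.17 with 1 left out. For chondrogenic potential it was 0.28 with the GC offset, 0.26 with block and GC offset, and 0.01 to 0.24 with 1 left out. For Col2a1 and chondrogenic potential the difference changed sign, to 0.036 with the replicate block, 0.26 with block and GC offset, 0.034 with the GC offset and 0.32 without OA2 and O1, and ran from -0.60 to 0.47 with 1 library left out. The cause was not tested. Collagen shares without Col1a1 and Col1a2 were 2.82% in OAC, 2.67% in OA, 2.28% in O and 1.62% in A, and without Col3a1 as well 2.56%, 2.36%, 1.99% and 1.57%. Shares with 1 library left out were 6.68% to 7.62% in OAC, 8.17% to 9.54% in OA, 8.69% to 9.86% in O and 3.15% to 3.57% in A. The replicate number was not taken to pair libraries, since it was required that every same-numbered pair have a correlation of deviations over 0.1 and 11 of 18 did. All 6 pairs among the pools numbered 3 did, at 0.29 to 0.76, and 5 of the 12 pairs among clones. In all, 7 of 12 libraries correlated best with their own number. With so few libraries per group, and counts below 50 for the scarcest genes, smaller differences were not detectable.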
